A study of Mus musculus with 6 samples.

Results

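The genes described are the beta subunits of the sodium pump, Atp1b1, Atp1b2 and Atp1b3, and the calcium pumps Atp2a2 and Atp2b1, measured in whole adrenal glands of 2 mouse strains. They were found as every probe set of the Affymetrix MG_U74Av2 array whose annotation names exactly 1 gene and that gene is one of these. This gave 4 of the 8252 genes with a probe set of their own, and 6 of 12488 probe sets, a probe set being a group of short oligonucleotides that together read 1 transcript: 2 for Atp1b1, 2 for Atp1b2, 1 for Atp1b3 and 1 for Atp2a2. For Atp2b1 no such probe set was found, so it is not analysed here. The groups are BPH (Blood Pressure High), a hypertensive strain, and BPL (Blood Pressure Low), a hypotensive strain, each with 3 arrays of adrenal RNA and no treatment named. The labels give no age, no sex and no number of animals per array, and nothing says whether the 3 arrays of a strain came from separate animals, so p-values measure the spread between these arrays, which may be technical. Each group is a single strain, so a difference between them cannot be assigned to blood pressure.

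The sodium pump, or Na+/K+-ATPase, moves sodium out of a cell and potassium into it against their gradients, at the cost of ATP. It joins a catalytic alpha subunit with a glycosylated beta subunit, which carries the complex to the plasma membrane, and often a small FXYD protein that tunes its affinity. In the adrenal gland the gradients it maintains underlie the resting potential of steroid-making cortical cells and of the chromaffin cells that release catecholamines. Calcium pumps clear calcium from the cytosol after a signal: Atp2a2 encodes SERCA2, which fills the endoplasmic reticulum, and Atp2b1 encodes a plasma membrane pump. In kidney and vessel wall, sodium pump activity is a textbook determinant of salt handling and arterial tone.

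Values are intensities on a linear scale, as deposited. Tests were run on log2 values with limma, after raising values under an intensity of 201.3 (the 20th percentile of the whole table) to that floor, on probe sets with a mean of at least 678.6 (the 40th percentile of probe set means). With Benjamini-Hochberg adjustment over all 7459 tested probe sets, 191 of them, or 2.56%, had an adjusted p under 0.05 and are termed called. Of the 6 pump probe sets 3 passed the filter, 1 each for Atp1b1, Atp1b3 and Atp2a2, and none of these 3 was called by limma. At an unadjusted p under 0.05 the count was 1 of 3, against 19.3% of all tested probe sets. For 2 of the 3, Atp1b3 and Atp1b1, every BPH array lay above every BPL array, as it did for 14.8% of all tested probe sets. A separation of either direction was found for 26.3%.

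**Figure D1:**
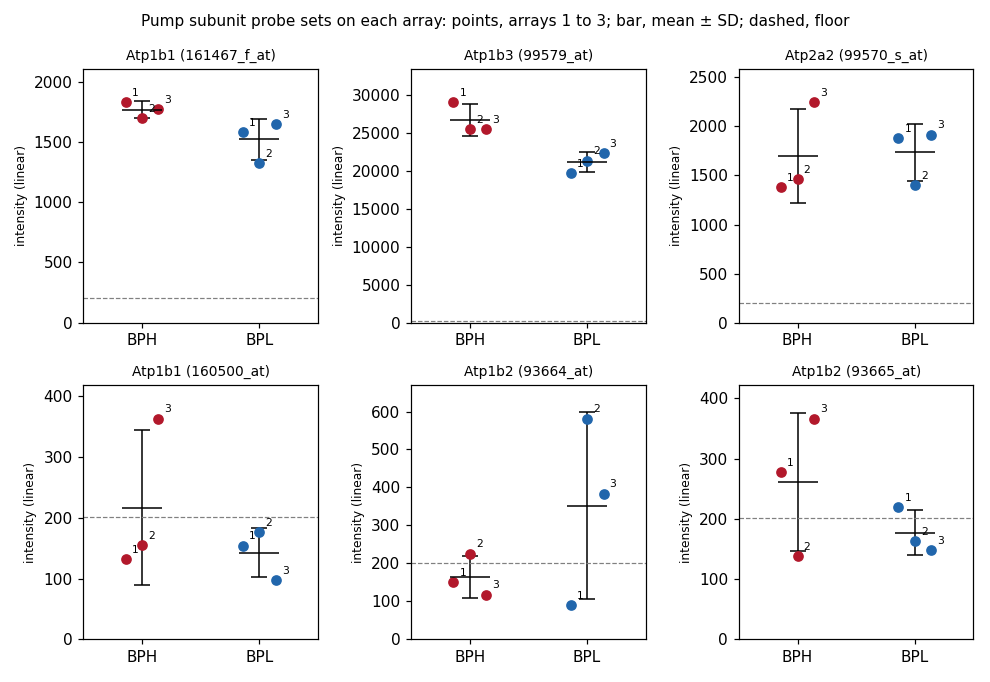
Intensity (linear axis from 0) of the 6 pump probe sets on each array, with BPH in red and BPL in blue, the array number beside each point, the mean with its SD over 3 arrays in black, and the floor of 201.3 as a dashed line. Atp1b3 and Atp1b1 (161467_f_at) separate by strain, Atp2a2 overlaps, and the probe sets of the lower row lie near or below the floor.

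The promoters of the 2 genes whose arrays separated are shown here, since these are the transcripts whose BPH arrays all lay above the BPL arrays. They are the 250 bases before the annotated start, 5′ to 3′ on the gene's strand, taken from RefSeq on GRCm38.p6, and so are those of the reference strain, not of BPH or BPL. Capitals mark the GC box GGGCGG and the CCAAT box CCAAT on either strand. Atp1b1 lies at chr1:164458356-164458605 and Atp1b3 at chr9:96364432-96364681, both on the minus strand.
Atp1b1: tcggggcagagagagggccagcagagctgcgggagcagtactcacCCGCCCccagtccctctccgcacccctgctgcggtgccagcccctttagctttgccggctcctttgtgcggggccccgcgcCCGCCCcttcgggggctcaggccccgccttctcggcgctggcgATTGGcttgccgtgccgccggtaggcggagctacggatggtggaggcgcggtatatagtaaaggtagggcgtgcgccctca
Atp1b3: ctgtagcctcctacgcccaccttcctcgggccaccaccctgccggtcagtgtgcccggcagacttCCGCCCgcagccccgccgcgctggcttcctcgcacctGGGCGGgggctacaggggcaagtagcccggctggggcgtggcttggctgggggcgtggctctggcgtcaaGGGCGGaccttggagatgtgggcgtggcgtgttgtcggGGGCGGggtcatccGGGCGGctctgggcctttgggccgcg
Both windows are rich in G and C, at 70.4% for Atp1b1 and 73.6% for Atp1b3, against a median of 52.4% over 32851 RefSeq promoters of the same length. The Atp1b1 window holds 2 GC boxes and 1 CCAAT box, which ends 77 bases before the start. The Atp1b3 window holds 5 GC boxes, the nearest 21 bases before the start, and no CCAAT box. Of all promoters of this length 32.7% hold a GC box and 33.8% a CCAAT box. Of 4 further motifs searched on both strands, the core of cAMP response elements TGACG (17.8% of promoters) had 1 match, in Atp1b3. The nuclear receptor motif AGGTCA (14.0%), the steroid receptor motif TGTTCT (16.1%) and the exact TATA box string TATAAA (12.4%) had none in either window. Variants of these strings were not searched. The Atp1b1 window holds the similar string TATATAG near its end, so a TATA-like element there is not excluded. No match in these windows overlapped another motif's match. Atp1b3 has another annotated start, whose window holds none of the 6 motifs. The 2 windows of Atp2b1, which was not measured, are richer still in G and C, at 78.4% and 80.8%. They hold 4 and 3 matches to the GC box. In the first window those ending 23, 19 and 15 bases before the start form a single run, each overlapping the next. High G and C content and GC box matches are thus not particular to the genes whose arrays separated. A match describes the letters and is no evidence of binding.

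Atp1b3 encodes the beta3 subunit, a widely expressed partner of the catalytic subunit. Its probe set 99579_at read 29155.9, 25544.7 and 25493.1 on BPH arrays 1, 2 and 3, and 19739.1, 21389.2 and 22360.4 on BPL arrays 1, 2 and 3. The lowest BPH array was thus above the highest BPL array, and array BPH 1 stood above the other two of its strain. The mean of BPH was 26731 ± 2100 and that of BPL 21163 ± 1325 (SD, n = 3 each), a mean 26.3% higher in BPH. The fitted log2 difference was 0.34 (SE 0.12, 95% interval 0.07 to 0.60), with a limma p of 0.0187 before and 0.168 after adjustment. It was therefore not called. An exact two-sided permutation test over the 6 arrays gave p = 0.1, the smallest that 3 against 3 arrays allow. Arrays that separate above the floor must give this value, as those of Atp1b1 (161467_f_at) also did. It therefore adds nothing to the separation itself.

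The arrays BPH 1 and BPH 2 were processed on fluidics station 2 and the other 4 on station 1, so part of the strain contrast coincides with the station. Within station 1, where BPH 3 alone stands against the 3 BPL arrays and is assumed to vary as they do, the log2 difference of Atp1b3 was 0.27 (SE 0.21, limma adjusted p = 0.849). A fit over all arrays with station as a block must give the same estimate, since station 2 holds no BPL array. Its SE was 0.18 (limma adjusted p = 0.722). On leaving out any 1 array the estimate for Atp1b3 ran from 0.27 to 0.38. Its sign could not change there, since the arrays of the strains did not overlap.

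Atp1b1 encodes the beta1 subunit, the main beta subunit of many epithelia. Its probe set 161467_f_at read 1835.0, 1696.0 and 1776.8 on the BPH arrays and 1586.2, 1328.7 and 1652.1 on the BPL arrays, in the order of their numbers. Again all BPH arrays were above all BPL arrays, but BPL 3 and BPH 2 were nearly level and BPL 2 was the low one. The means were 1769 ± 69.8 and 1522 ± 171 (SD, n = 3 each), 16.2% higher in BPH. The log2 difference was 0.22 (SE 0.17, 95% interval -0.15 to 0.60, limma adjusted p = 0.497), so the interval holds both no difference and one larger than that of Atp1b3. It was 0.13 without BPL 2 and 0.10 without both BPH 1 and BPL 2, and 0.23 within station 1. The ending f in the probe set's name is Affymetrix's mark for probes shared within a family of similar sequences, so other transcripts may add to the signal.

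The other Atp1b1 probe set, 160500_at, did not pass the filter. It read 131.5, 154.9 and 363.4 in BPH and 154.4, 176.1 and 97.4 in BPL. Of the 6 arrays 5 lay below the floor, and BPH 3 was the exception, so no difference in either direction can be read from it. Fitted without the filter, its log2 difference was 0.28 (SE 0.26, limma adjusted p = 0.671).

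Atp1b2 encodes the beta2 subunit, known from glia as an adhesion molecule, and both of its probe sets lay near the floor. Probe set 93664_at read 151.6, 225.9 and 118.1 in BPH and 91.0, 581.6 and 384.0 in BPL. Its higher values were those of BPL 2 and BPL 3, while BPL 1 was the lowest of all 6 arrays. Probe set 93665_at read 278.1, 138.6 and 366.4 in BPH and 218.8, 162.8 and 148.3 in BPL, with BPH 3 and BPH 1 on top. Each had 3 of 6 arrays below the floor. Fitted without the filter, the pair pointed in opposite directions, with log2 differences of -0.77 (SE 0.41, limma adjusted p = 0.498) for 93664_at and 0.40 (SE 0.23, limma adjusted p = 0.531) for 93665_at. No strain direction for Atp1b2 can be read from them. The summed intensity of 7 Schwann cell and nerve markers of 9 listed, 3 of them bright enough to test and none called, was 9199 to 9855 in BPH and 11709 to 15500 in BPL. It was highest on BPL 3, where 93664_at read 384.0 and 93665_at 148.3, and its part in these readings was not tested.

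Atp2a2, the gene of SERCA2, overlapped between the strains. Its probe set 99570_s_at read 1379.8, 1465.9 and 2251.7 on BPH arrays 1, 2 and 3 and 1883.4, 1404.1 and 1916.4 on BPL arrays 1, 2 and 3. The highest array and the lowest were both BPH. The means were 1699 ± 480 and 1735 ± 287 (SD, n = 3 each), and the log2 difference was -0.05 (SE 0.23, 95% interval -0.58 to 0.47, limma adjusted p = 0.927). The interval leaves room for a change of either sign that exceeds the estimate for Atp1b3. The ending s marks probes common to several transcripts, and the annotation does not say which SERCA2 isoform the probe set reads.

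Both station 2 arrays were low in Atp2a2, and so was BPL 2 of station 1, while the other 3 station 1 arrays were higher. Within station 1 the log2 difference was 0.39 (SE 0.29, limma adjusted p = 0.844), the opposite sign to the value over all arrays. A station block gives the same estimate by design, here with an SE of 0.27 (limma adjusted p = 0.733). The log2 difference also turned positive without BPH 1 (0.08), BPH 2 (0.04), BPL 1 (0.02) or BPL 3 (0.03), and was -0.27 without BPH 3. No direction is given for Atp2a2.

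**Figure D2:**
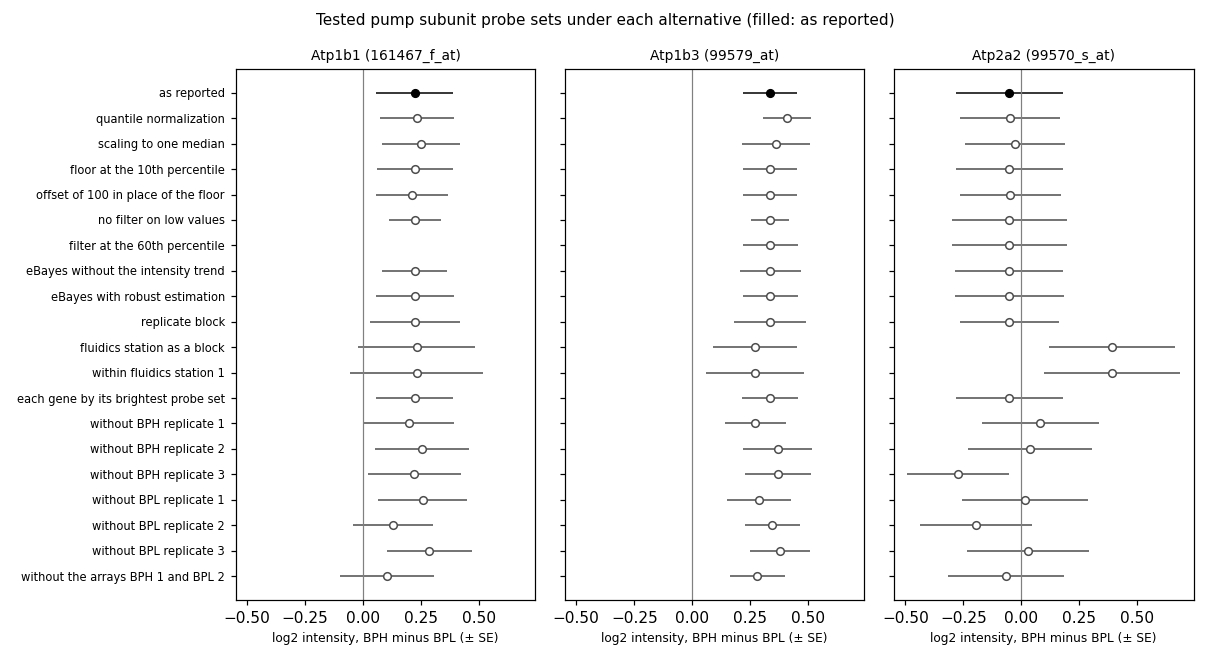
Log2 difference, BPH minus BPL (point) with its SE (line), of the 3 tested pump probe sets over all arrays (filled) and under each alternative (open). Atp1b3 stays between 0.27 and 0.41 and Atp1b1 between 0.10 and 0.28, while Atp2a2 lies on both sides of 0. Atp1b1 has no value at the 60th percentile filter, which it does not pass.

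The partners and regulators of the sodium pump were taken as a list of 18 genes, of which 9 had probe sets, 10 in all. The FXYD proteins associate with the pump in the membrane. Fxyd1, phospholemman, read 12546.2, 10573.8 and 11017.5 in BPH and 8489.7, 12084.4 and 7825.5 in BPL. Only BPL 2 reached the BPH range, and the log2 difference was 0.29 (SE 0.17, limma adjusted p = 0.397). It was 0.48 without BPL 2 (limma adjusted p = 0.104) and 0.16 without BPL 3. Fxyd5, dysadherin, had a log2 difference of 0.15 (SE 0.24, limma adjusted p = 0.781), with overlapping arrays. Fxyd2, the gamma subunit known from kidney, read 921.9, 534.4 and 374.6 in BPH and 233.5, 292.0 and 1502.2 in BPL and did not pass the filter, with BPL 3 far above all other arrays. Fxyd3 and Fxyd7 also did not pass it, and each had 4 of 6 arrays below the floor. The catalytic subunit of the related gastric proton pump, Atp4a, had a log2 difference of -0.18 (SE 0.15, limma adjusted p = 0.550), and its partner Atp4b was below the floor on all 6 arrays.

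Sgk1 and Nedd4l regulate sodium transport downstream of aldosterone: the kinase Sgk1 keeps transporters in the membrane, and Nedd4l is a ubiquitin ligase that removes the epithelial sodium channel and is inhibited by Sgk1. Nedd4l was read by a pair of probe sets. The brighter, 103906_f_at, read 1404.3, 1401.6 and 1725.5 in BPH and 2010.6, 2503.9 and 2281.7 in BPL. It has the f ending described for Atp1b1, so other transcripts may add to its signal. Every BPL array was above every BPH array, and the log2 difference was -0.59 (SE 0.17, limma adjusted p = 0.104). The other, 103907_at, read 694.6, 642.0 and 633.5 in BPH and 1020.1, 1703.0 and 1025.2 in BPL, again without overlap and with BPL 2 on top. Its log2 difference was -0.89 (SE 0.29, limma adjusted p = 0.146). Sgk1 read 8715.7, 9011.7 and 9490.7 in BPH and 7767.9, 6522.0 and 8315.2 in BPL. These arrays separated in the other direction, with a log2 difference of 0.27 (SE 0.13, limma adjusted p = 0.285) that was 0.17 without BPL 2. None of the 3 was called. Within station 1 the log2 differences were -0.39 (SE 0.26) and -0.94 (SE 0.45) for Nedd4l and 0.34 (SE 0.23) for Sgk1, with limma adjusted p-values of 0.827, 0.737 and 0.831.

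**Figure D3:**
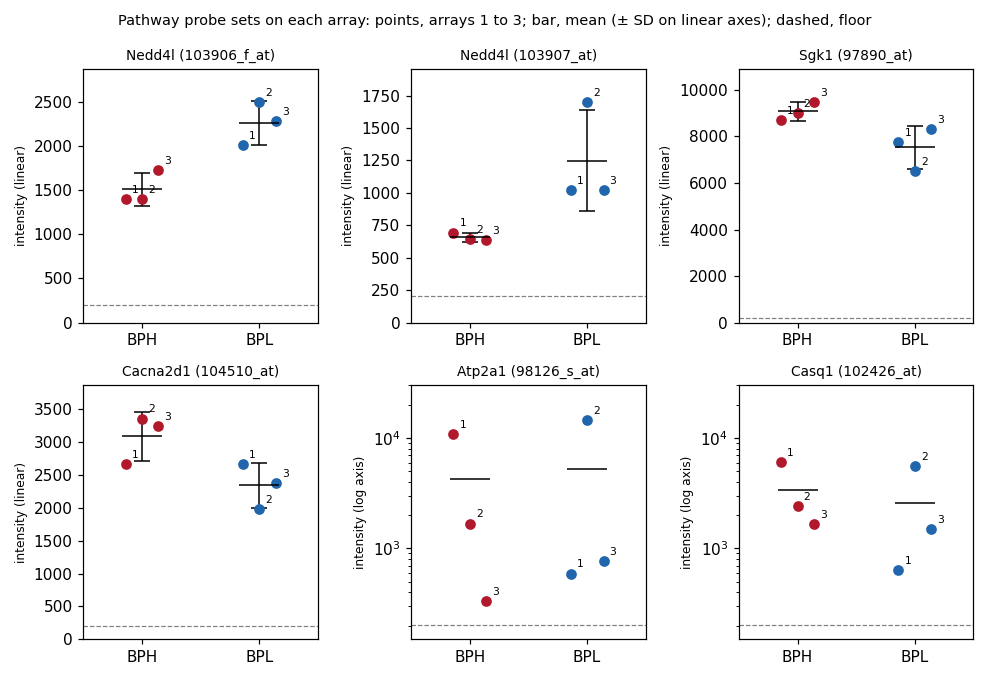
Intensity of 6 probe sets of the pathway lists on each array, BPH in red and BPL in blue, with array numbers, the mean (black, with SD over 3 arrays on the linear axes) and the floor of 201.3 (dashed). Nedd4l is lower and Sgk1 higher on every BPH array, while Atp2a1 and Casq1, on log axes, are highest on BPH 1 and BPL 2.

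The relatives of SERCA2 and other calcium handling genes were a list of 43 genes, of which 26 had probe sets, 39 in all. Atp2a3, SERCA3 of blood and endothelial cells, had a log2 difference of -0.03 (SE 0.16, limma adjusted p = 0.938) at 103935_at. Its other probe sets did not pass the filter: 93403_at lay below the floor on all 6 arrays, and 93404_g_at read 175.6 to 306.0 in BPH and 264.6 to 1099.0 in BPL. The Golgi calcium pump Atp2c1 differed by 0.05 (SE 0.20, limma adjusted p = 0.913) at 95897_at, and its other probe set 161574_r_at was below the floor on all 6 arrays. The plasma membrane pump Atp2b2 read 474.5, 483.8 and 195.7 in BPH and 351.6, 155.5 and 140.4 in BPL and was not tested. The sodium-calcium exchanger Slc8a1 had 3 probe sets, none of which passed the filter. The brightest, 99524_at, read 698.2, 896.0 and 694.2 in BPH and 744.4, 303.8 and 375.2 in BPL, with BPL 1 inside the BPH range.

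Atp2a1, the SERCA1 pump of fast skeletal muscle, varied mainly within the strains. Its probe set 98126_s_at read 10829.7, 1680.9 and 334.6 in BPH and 592.1, 14508.1 and 768.1 in BPL. It was high on BPH 1 and BPL 2, 1 array of each strain, and low on the rest, and 162223_f_at had the same order at the top with 7802.6 and 12668.8. The log2 differences were -0.04 (SE 1.40, limma adjusted p = 0.991) and 0.01 (SE 1.62, limma adjusted p = 0.997). Over 16 of 17 listed skeletal muscle markers, Atp2a1 among them, the summed intensity was 17507 to 204816 in BPH and 17933 to 212385 in BPL, with both maxima on these arrays. Atp2a2 read 1379.8 and 1404.1 there, the lowest values of its probe set. For slow and cardiac muscle markers, 14 of 15 listed and 7 tested, the sum was 12303 to 24740 in BPH and 9378 to 25234 in BPL. Sarcolipin, Sln, a small SERCA inhibitor, read 796.9, 846.1 and 738.2 in BPH and 669.8, 202.3 and 823.4 in BPL, a log2 difference of 0.72 (SE 0.55, limma adjusted p = 0.507) that rests on the BPL 2 value, close to the floor. Cacna2d1, an accessory subunit of voltage-gated calcium channels, read 2664.0, 3354.1 and 3237.7 in BPH and 2664.4, 1981.1 and 2371.1 in BPL. The log2 difference was 0.40 (SE 0.16, limma adjusted p = 0.228).

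**Figure D4:**
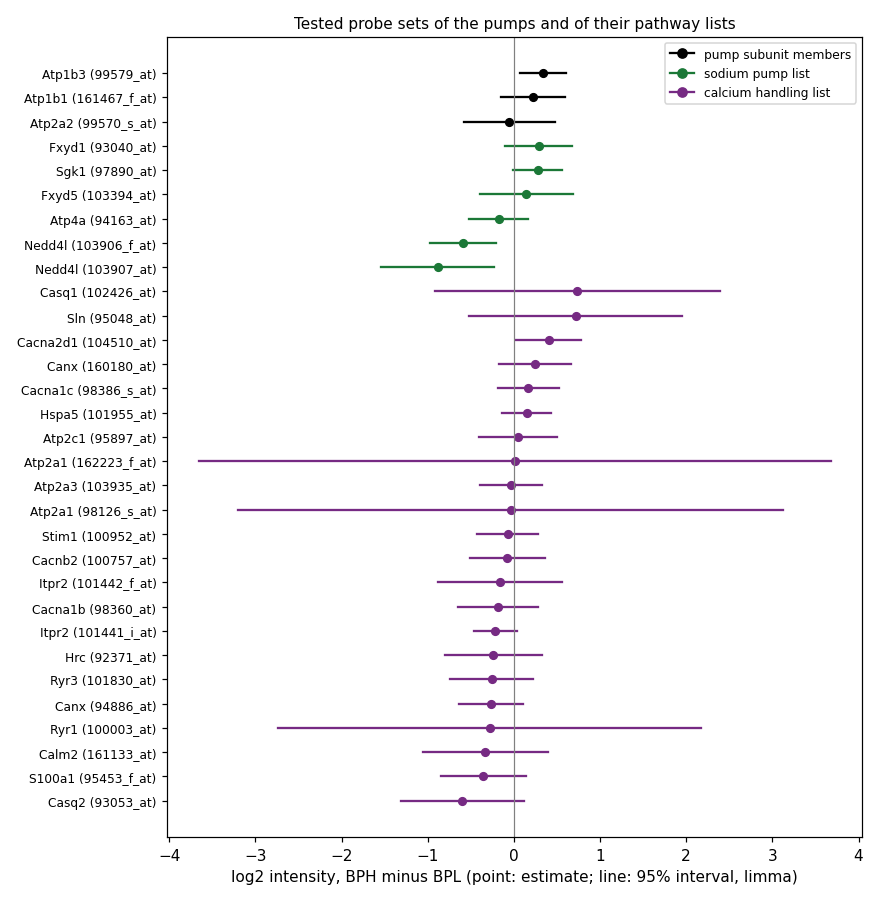
Log2 difference, BPH minus BPL (point), with its 95% interval from limma (line), of the 3 tested pump probe sets (black), 6 tested probe sets of the sodium pump list (green) and 22 of the calcium handling list (purple). None was called, and the widest intervals are those of Atp2a1 and Ryr1, which vary with the muscle transcripts on BPH 1 and BPL 2.

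Over both lists 28 of 49 probe sets were tested and limma called 0, with 3 at an unadjusted p under 0.05, the pair of Nedd4l and Cacna2d1. The background was 2.56% called and 19.3% at an unadjusted p under 0.05. The median log2 difference was -0.02 for the sodium pump list and -0.07 for the calcium handling list, against 0.02 over all tested probe sets. The arrays of the strains did not overlap for 5 of the 28, against 26.3% of all tested. Besides Nedd4l and Sgk1 these were Itpr2 at 101441_i_at, an inositol trisphosphate receptor (log2 difference -0.22, SE 0.11, limma adjusted p = 0.317), and Casq2, the cardiac calsequestrin (-0.60, SE 0.31, limma adjusted p = 0.342), both named after their values were seen. The other tested Itpr2 probe set, 101442_f_at, overlapped (-0.16, SE 0.32).

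For each tested pump gene, the genes with the most similar profile were found by Pearson's r of log2 intensity over the 6 arrays, among 5664 other genes at 1 probe set each. With 6 points, shared arrays and this many genes, such values are a description. Genes chosen for a like profile are likely to separate or overlap by strain as the pump gene does. Their strain differences therefore lend the pump gene no support. Nearest to Atp1b3 were Fam136a (r = 0.985), the transcription factor gene Mef2a (0.982), the nuclear import receptor gene Ipo5 (0.979), the ubiquitin ligase gene Arih1 (0.975) and Gm2a (0.974), a lysosomal lipid-binding protein. All 5 separated by strain as Atp1b3 did, and Fam136a (log2 difference 1.09, SE 0.18, limma adjusted p = 0.0183) and Arih1 (0.99, SE 0.15, limma adjusted p = 0.0139) were called higher in BPH. Nearest to Atp1b1 were the actin-binding coronin gene Coro1b (r = 0.998), the potassium channel gene Kcnk1 (0.996), the general transcription factor gene Gtf2b (0.994), the alcohol dehydrogenase gene Adh1 (0.993) and Tmem179b (0.991). All of these were higher on every BPH array and none was called, Kcnk1 having the largest log2 difference of the 5 at 0.77 (SE 0.25, limma adjusted p = 0.145). Nearest to Atp2a2 were Clns1a (r = 0.993), Hoxb13 (0.979), Plac1 (0.979), Wdr43 (0.979) and the synaptic scaffold gene Homer3 (0.978). Their arrays overlapped between strains, with log2 differences from -0.06 to 0.07.

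The tissue carried the markers of an adrenal gland. Of 9 listed cortex markers 8 were on the array and all 8 were tested with none called, and their summed intensity was 665622 to 779526 in BPH and 668903 to 734310 in BPL. For chromaffin cells, 9 of 10 listed were tested and 1 was called higher in BPH, with sums of 264632 to 326374 in BPH and 150414 to 300834 in BPL. Brown fat markers, 7 of 8 listed with 5 tested and 1 called lower, did not overlap, at 37233 to 64585 in BPH and 101098 to 293768 in BPL, with the maximum on BPL 2. They moved against Atp1b3 and Atp1b1 between strains, and with Nedd4l. The Schwann cell and nerve markers given beside Atp1b2 did not overlap either and had the same direction. Within each strain the chromaffin sums ranked the arrays as Atp1b1 (161467_f_at) did, with BPL 2 the lowest, but not as Atp1b3 did. Unlike the arrays of Atp1b1, these sums overlapped between strains. BPL 3 (300834) lay above BPH 2 (264632) and BPH 3 (292761). The part of these marker lists in the results was not tested. In whole glands, fewer cells of a type and less RNA per cell cannot be told apart. None of 7 kidney markers was bright enough to test, with sums of 1522 to 2200 in BPH and 1507 to 2483 in BPL. For markers of fat in general, smooth muscle, endothelium, blood and macrophages the sums overlapped between strains. Of these markers 1, in the fat list, was called lower. The mean log2 intensity of the smooth muscle list did not overlap, at 10.38 to 10.43 in BPH and 10.63 to 10.81 in BPL. Its markers Myh11 (lower in BPH) and Tagln (higher in BPH) separated in opposite directions. No marker was listed at 0.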

How the data were processed

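Adrenal RNA of 2 strains was hybridised to MG_U74Av2 arrays, 3 per strain. Each array has 1 deposited linear intensity per probe set, with no detection call. The authors' software and background correction are not given in the sources used. Trimmed of the top and bottom 2%, all 6 arrays had a mean of 2501.3 to 2501.5, so the authors had scaled them to one level. The medians were 1003.5 to 1114.7. No further scaling was applied.

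Affymetrix's 66 control probe sets were removed. Values were floored, filtered and taken to log2 as stated above, and BPH minus BPL was fitted with limma 3.58.1 in R 4.3.3 (lmFit, then eBayes with the trend option), two-sided. The floor understates changes of dim probe sets. The number of arrays limits the precision. The fit was tested on simulated data.

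The platform's annotation names 1 gene for 10855 probe sets, several genes for 396 and no gene for 1237, and 10839 of the former were matched to RefSeq's GRCm38.p6 table for the current symbol. Promoters came from RefSeq and were found for 3 of the 5 genes.

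Named were all pump probe sets, the other pump subunits with their FXYD and SERCA partners, the called probe sets and the 4 with the smallest p of the remaining listed genes, and the 5 most similar genes of each tested member. The members, lists and tests were chosen with earlier results of these data known. Marker lists take the brightest probe set of each gene.

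Alternatives were other normalizations, floors, filters and variance models, the replicate number or fluidics station as a block, station 1 alone, 1 probe set per gene, and leaving out arrays. Over tested probe sets r was 0.919 to 0.959 between arrays of one strain and 0.889 to 0.934 between strains.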

Additional observations from a re-analysis of the deposited data

How the results depend on the processing

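No alternative called a pump probe set or a probe set of the pathway lists. Atp1b3 kept its direction under all 19 alternatives, with log2 differences of 0.27 to 0.41 and a smallest limma adjusted p of 0.0809. Atp1b1 kept its direction under the 18 that gave it a value, with 0.10 to 0.28 and a smallest limma adjusted p of 0.384. It did not pass the filter at the 60th percentile. Other filters and variance models, the replicate block and 1 probe set per gene left both log2 differences as they were. Arrays that do not overlap also keep their sign when arrays are left out or station 1 is taken alone. The kept direction of both was thus largely fixed in advance. Atp2a2 turned to 0.39 within station 1 and with a station block, where the strain difference rests on the same arrays. When 1 array was left out, Atp2a2 ran from -0.27 to 0.08. On leaving out 1 array, Atp1b3 ran from 0.27 to 0.38 and Atp1b1 from 0.13 to 0.28. The count of 191 called probe sets fell to 52 when dim probe sets were kept, 72 when eBayes had no trend, 124 with the replicate block, 17 with a station block and 7 in station 1 alone. It ran from 42 (without BPH 2) to 352 (without BPL 3) when 1 array was left out, with 51 without BPH 3 and 90 without either BPH 1 or BPL 1. Without both BPH 1 and BPL 2, an alternative chosen after seeing the data, it was 116. The fits with fewer arrays and blocks have fewer residual degrees of freedom, and otherwise the cause was not tested. Arrays with the same replicate number did not deviate together (correlations of -0.213, -0.081 and 0.014). So few correlations cannot show whether these arrays share more than a number. Each number has 1 array of each strain, so the replicate block cannot change the log2 differences. They stay at 0.34 for Atp1b3, 0.22 for Atp1b1 and -0.05 for Atp2a2. With the block the limma adjusted p-values were 0.332 for Atp1b3 and 0.612 for Atp1b1. Signal limits the other 3 pump probe sets, which lie near the floor.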
